A study of Mus musculus with 2 samples.

Results

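Podxl, Pecam1, Alpl, Icam1, Cd9, Cd24a, Cd44, Thy1 and Ly6a encode proteins of the cell surface by which mouse pluripotent stem cells and fibroblasts are told apart and sorted. They were taken as every probe set of the array that names exactly 1 gene with a symbol among these 9. That gave 14 probe sets for 8 of the genes, out of 34945 probe sets that name 1 gene and 45101 in all. Ly6a was not analysed here, since no probe set was named for it alone in the annotation used. RNA came from 2 cultures of mouse embryonic stem cells of strain C57BL/6, 1 with the genotype MOF +/+ (read on the wild-type-labelled array) and 1 with the genotype MOF-/- (read on the null-labelled array), and each was hybridised to 1 array. Mof, gene symbol Kat8, encodes a histone acetyltransferase. Lines of both genotypes were derived from embryos at 3.5 days post coitum, kept with LIF on feeder layers of mouse embryonic fibroblasts and used at passage 15 to 18 after 2 passages without feeders. How the null allele was made, and whether each line is a single clone, was not stated in the labels.

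Pluripotent stem cells carry a characteristic set of surface proteins, among them adhesion molecules, a tetraspanin and a phosphatase whose activity is the classic colony stain. Fibroblasts carry the hyaluronan receptor Cd44 and the lipid-anchored proteins Thy1 and Ly6a. When fibroblasts are reprogrammed to pluripotency, Thy1 and Cd44 are among the surface proteins that are lost, while Icam1, Pecam1 and alkaline phosphatase activity are gained. Several of these proteins are shared with other cells: Pecam1, Podxl and Icam1 with endothelium, and Cd44, Thy1, Cd24a and Icam1 with leukocytes.

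Values are RMA values on a log2 scale, in which 1 unit is a 2-fold step. The wild-type-labelled array spanned 2.77 to 14.6 (median 6.02), the null-labelled array 2.85 to 14.7 (median 6.01). Differences were taken as null-labelled minus wild-type-labelled, so a positive value is higher on the null-labelled array. With 1 array per genotype there is no replicate error and no test, and a probe set is counted by a rule of size, a difference of at least 1 log2 unit in either direction. Probe sets enter a count when the higher of their values reached 6.02, the median of all values of both arrays. The only available measure of spread was the scatter of probe sets within a gene, with a pooled SD of 0.33 log2 units over 5362 genes, which holds no variation between cultures. Kat8 itself read 8.06 on the wild-type-labelled array and 8.37 on the null-labelled array, and whether its probe set lies inside the deleted stretch was not stated in the labels. The arrays are therefore named by their labels, and each direction rests on those labels.

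The surface markers split into 3 sets on these arrays. Podxl, Pecam1, Alpl and Cd9 were higher on the null-labelled array, Alpl and Cd9 by just under 2-fold. Cd44 and Thy1 were lower by about the same amount as each other. Icam1 and Cd24a were lower by less than 2-fold, and Cd24a by less than the pooled SD of 0.33. Of 14 probe sets 13 passed the level filter, and of these 2 passed 2-fold upward, 4 passed it downward and 7 stayed under it. Over all 20935 probe sets above the filter that name 1 gene, 4.49% passed 2-fold upward and 11.1% downward, together 15.6%. The 13 probe sets are those of 8 genes, and 3 of the 4 lower probe sets are those of Cd44. By the brightest probe set of each gene, 2 of 8 genes passed 2-fold upward (Podxl and Pecam1) and 2 downward (Cd44 and Thy1), beside 5.09% and 11.9% of 12015 genes above the filter. The median difference was 0.40 over the 8 genes, in which opposite directions cancel, and 0.10 over the 12015 genes. Of all probe sets past 2-fold, 28.7% were higher as deposited and 3.30% when differences were taken relative to the median of 12 pluripotency transcription factors, which lowers each difference by 0.52.

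**Figure D1:**
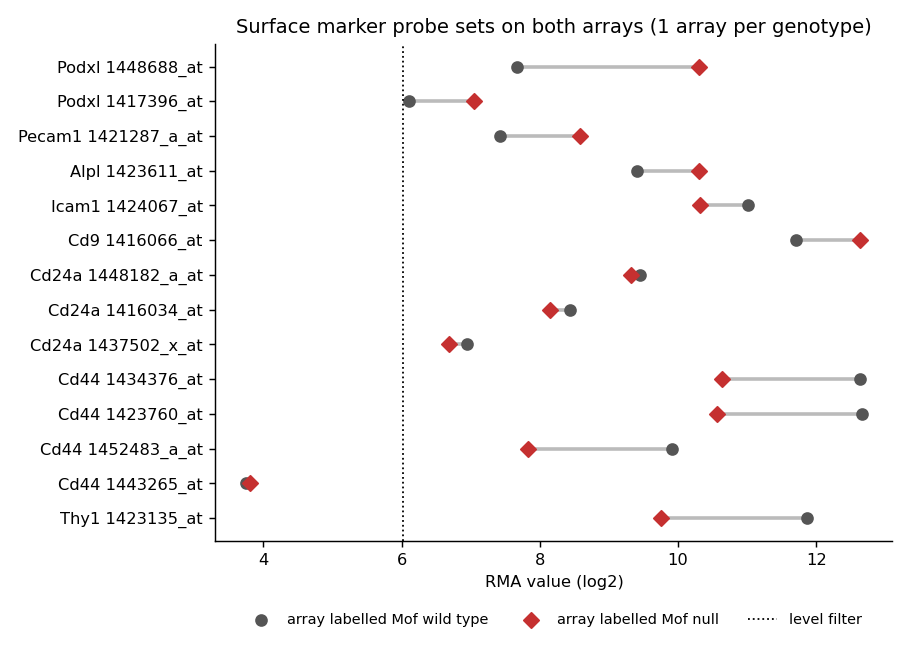
RMA values (log2, horizontal axis) of the 14 surface marker probe sets on the wild-type-labelled array (circles) and the null-labelled array (diamonds), with the level filter of 6.02 as a dotted line. The 3 Cd44 probe sets above the filter and the Thy1 probe set lie 1.99 to 2.11 units lower on the null-labelled array, and the bright Podxl probe set lies 2.63 higher.

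Podxl had the largest difference among the surface markers. It encodes podocalyxin, a sialylated mucin of the Cd34 family that lessens adhesion between cells and coats podocytes, endothelium and pluripotent cells. Its brighter probe set, 1448688_at, read 7.67 on the wild-type-labelled array and 10.3 on the null-labelled array. That difference of 2.63, or 6.21-fold, ranked 12 from the highest among 20935 probe sets. The second probe set, 1417396_at, read 6.10 and 7.05, so that on the wild-type-labelled array it stood just above the level filter. Its difference of 0.95, or 1.93-fold, had the same sign but missed 2-fold, and the 2 probe sets were 1.69 log2 units apart, which is more than the pooled SD of 0.33. Both name the same GenBank entry in the annotation, so which transcripts each reads cannot be told from it.

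Genes for relatives and linkers of podocalyxin were mixed in direction. Of 6 expressed genes for its relatives and for the linkers that tie its tail to actin, 3 were above 0 and 3 below. None passed 2-fold upward and 2 passed it downward, beside 5.09% and 11.9% of all expressed genes. The median was -0.31, which was 0.34 with the level filter at percentile 75. Cd34, a mucin of the same family, differed by -1.91 and the linker gene Msn (moesin) by -1.51. In contrast, the related linker genes Rdx (radixin) and Ezr (ezrin) differed by 0.66 and 0.39. The adaptor gene Slc9a3r2 differed by -0.91 on its brightest probe set and by -0.051 on another. Its relative Slc9a3r1 differed by 0.29 on its brightest probe set and by -0.060 on another.

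Pecam1 passed 2-fold on its only probe set. It encodes an adhesion protein of the immunoglobulin family that binds itself on neighbouring cells and marks naive mouse stem cells, endothelium and platelets. The probe set, 1421287_a_at, whose suffix marks probes shared by several transcripts of the gene, read 7.42 on the wild-type-labelled array and 8.59 on the null-labelled array. The difference of 1.16, or 2.24-fold, ranked 546 from the highest of 20935. Relative to the median of the pluripotency factors it was 0.64, which is under 2-fold, a scaling chosen after seeing the data.

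Other endothelial genes were mostly near the bottom of the scale. Of 12 endothelial genes 7 lay below the level filter on both arrays, among them the defining cadherin gene Cdh5 at 4.87 and 5.57 and Vwf at 4.23 and 5.44 on the wild-type-labelled and null-labelled arrays. Of the 5 above it, Esam, a junction protein gene, differed by 1.07, Tek by 0.62, Kdr by -0.29 and Flt1, a receptor gene for vascular growth factor, by -1.21. The median over the 5 was -0.12, or 0.22 with no level filter over all 12 and -1.21 with the filter at percentile 75, and the log2 of the summed linear values of the list was 10.3 on the wild-type-labelled array and 10.2 on the null-labelled array.

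Alpl and Cd9 were higher by nearly the same amount, and both stayed just under 2-fold. Alpl encodes the lipid-anchored alkaline phosphatase of bone, liver and stem cell colonies. It read 9.40 on the wild-type-labelled array and 10.3 on the null-labelled array, a difference of 0.91, or 1.88-fold, at rank 1262 from the highest. Cd9 encodes a tetraspanin, a membrane protein that clusters integrins and other proteins in the membrane and is needed on the egg for fusion with sperm. It read 11.7 and 12.6, a difference of 0.93, or 1.90-fold, at rank 1197. Both missed the count by less than 0.1 log2 units, and at 1.5-fold 5 probe sets were higher, namely those of Podxl, Pecam1, Alpl and Cd9, and 5 lower, those of Cd44, Thy1 and Icam1. Over all probe sets above the filter, 16.0% were higher and 18.3% lower at that threshold, together 34.4%. At 4-fold 1 probe set was higher, the bright one of Podxl, and 3 lower, of Cd44 and Thy1, beside 0.22% and 2.95% of all probe sets, together 3.17%.

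The DNA just upstream of the start sites of Alpl and Cd9 is shown here, and that of Icam1 and Cd44 with those genes. Whether the motifs marked in it bear on the differences was not tested. RefSeq start regions of assembly GRCm38.p6 matched only these 4 of the 9 genes. Each window holds the 250 bases before a start site, 5′ to 3′ on the gene's strand, and capitals mark matches on either strand to 6 short motifs chosen with these sequences in view. The motifs are the GC box, spelled GGGCGG, the TATA box, spelled TATAAA, and the CCAAT box, beside the AP-1 motif, spelled TGANTCA, the STAT motif, spelled TTCNNNGAA, and the NF-kB motif, spelled GGAANTTCC. Of 32851 such windows in the table, 32.7% hold the GC box, 12.4% the TATA box, 33.8% the CCAAT box, 6.75% the AP-1 motif, 7.02% the STAT motif and 0.81% the NF-kB motif. The windows are chr4:137796385-137796634 on the minus strand for the upstream start of Alpl, chr4:137766476-137766725 on the minus strand for its downstream start and chr6:125494761-125495010 on the minus strand for Cd9.
Alpl, upstream start: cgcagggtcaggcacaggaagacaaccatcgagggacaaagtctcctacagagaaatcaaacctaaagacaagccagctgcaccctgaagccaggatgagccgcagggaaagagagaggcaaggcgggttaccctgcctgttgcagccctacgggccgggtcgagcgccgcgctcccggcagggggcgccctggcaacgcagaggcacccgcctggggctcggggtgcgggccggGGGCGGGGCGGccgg
Alpl, downstream start: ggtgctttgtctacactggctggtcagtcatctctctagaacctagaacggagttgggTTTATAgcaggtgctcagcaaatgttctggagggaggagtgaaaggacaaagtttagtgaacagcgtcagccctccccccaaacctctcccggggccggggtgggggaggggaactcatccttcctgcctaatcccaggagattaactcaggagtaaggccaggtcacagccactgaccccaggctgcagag
Cd9: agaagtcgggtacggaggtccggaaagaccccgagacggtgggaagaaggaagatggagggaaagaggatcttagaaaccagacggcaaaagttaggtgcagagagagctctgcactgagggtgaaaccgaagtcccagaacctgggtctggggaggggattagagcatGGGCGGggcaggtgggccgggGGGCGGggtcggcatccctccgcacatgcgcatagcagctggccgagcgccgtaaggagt
The upstream Alpl window holds 2 GC boxes that overlap by 1 base, starting at -15 and -10, and the Cd9 window holds 2, starting at -81 and -60. The downstream Alpl window holds a TATA box match on the opposite strand at -192 and no GC box. The G and C content was 68.4% and 56.0% for the upstream and downstream Alpl windows and 61.6% for Cd9, beside a median of 52.4% over all windows. Which Alpl start the probe set's transcripts use cannot be told from these values, and a match is a run of letters, not evidence of binding.

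The families of Cd9 and Alpl did not move as a whole. Of 20 expressed tetraspanin and Cd9 partner genes, 2 passed 2-fold upward, 2 passed it downward and the median was -0.093. Of all expressed genes 5.09% passed it upward and 11.9% downward. Tspan8 differed by 1.26, and Tspan33 read 5.34 on the wild-type-labelled array, under the level filter, and 6.57 on the null-labelled array, a difference of 1.23. In contrast, the leukocyte tetraspanin Cd53 differed by -2.29 and Cd82 by -1.77 on its brightest probe set and 0.13 on another. Of the alkaline phosphatase and phosphate handling genes, the other phosphatases Alppl2, Akp3 and Alpi lay below the level filter on both arrays, at 4.80 to 5.35. The 3 above it were the pyrophosphate exporter gene Ank, at -0.90, and the phosphate importer genes Slc20a1 and Slc20a2, at 0.18 and 0.14, and none of them passed 2-fold. Their median of 0.14 was -0.22 without probe sets whose suffix marks shared probes.

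Icam1 and Cd24a are used as markers of pluripotent cells but were not higher on the null-labelled array. Icam1 encodes the immunoglobulin-family ligand of leukocyte integrins, a gene induced by inflammatory signals through NF-kB and by interferon. It read 11.02 on the wild-type-labelled array and 10.3 on the null-labelled array, a difference of -0.70, or 1.63-fold lower, at rank 3285 from the lowest. That is under 2-fold, and more than the pooled SD between probe sets, which holds no variation between cultures. Relative to the pluripotency factors the difference was -1.23. Its upstream window, chr9:21015690-21015939 on the plus strand, is marked as above.
Icam1: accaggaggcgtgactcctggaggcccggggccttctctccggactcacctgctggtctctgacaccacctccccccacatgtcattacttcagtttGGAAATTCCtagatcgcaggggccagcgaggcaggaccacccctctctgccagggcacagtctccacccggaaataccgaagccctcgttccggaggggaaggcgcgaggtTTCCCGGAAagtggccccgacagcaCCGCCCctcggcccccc
It holds 1 NF-kB match at -153, 1 STAT match at -42 and 1 GC box on the opposite strand at -17. Of the other ICAM genes and their integrin receptors, 4 were expressed. Of these 2 passed 2-fold downward and none upward, beside 11.9% and 5.09% of all expressed genes, with a median of -0.69. That median was 0.34 with no level filter, -1.83 with the mean of every probe set of a gene and -2.29 with the filter at percentile 75. The leukocyte integrin gene Itgb2 differed by -2.29 and Itgal by 0.45. Itgam differed by -1.83, from 6.64 to 4.81 on the null-labelled array, and Icam4 by 0.81, from 5.60 on the wild-type-labelled array to 6.42, so that each passed the level filter only on the array where it was higher.

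Cd24a was nearly the same on both arrays. It encodes a very short, heavily glycosylated protein held by a GPI lipid anchor and found on stem cells, immature lymphocytes and epithelia. The brightest of its 3 probe sets, 1448182_a_at, read 9.45 on the wild-type-labelled array and 9.33 on the null-labelled array. Probe set 1416034_at read 8.44 and 8.15, and 1437502_x_at, whose suffix marks probes that can match other genes, read 6.94 and 6.68. The differences of -0.12, -0.29 and -0.26 all lay below 0 and were smaller than the pooled SD of 0.33. They kept that sign under centring, trend correction and a second quantile normalization, where they ran from -0.38 to -0.11.

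**Figure D2:**
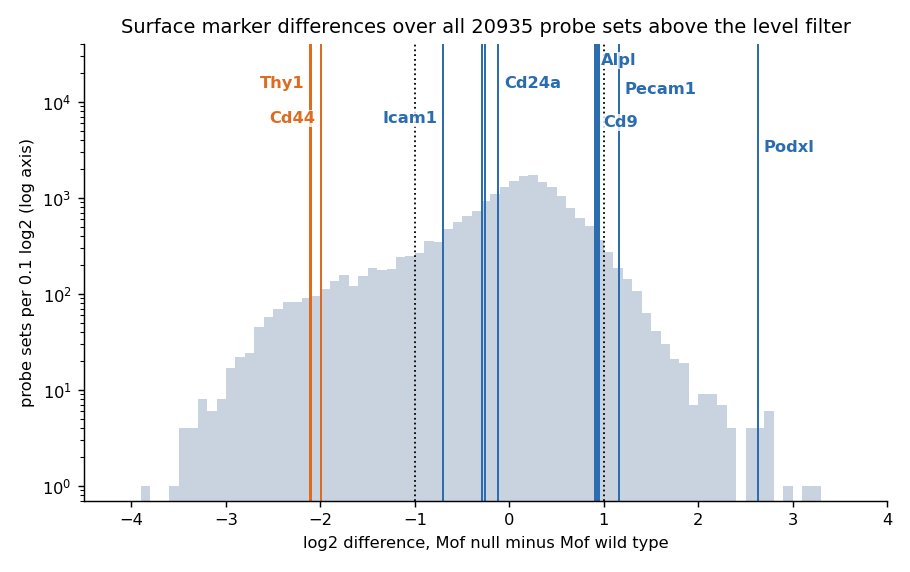
Log2 differences (Mof null minus Mof wild type, horizontal axis) of the 13 surface marker probe sets above the level filter as lines, over the histogram of all 20935 probe sets above it (bars, log axis), with dotted lines at 2-fold. Cd44 and Thy1 (orange) lie between -2.11 and -1.99 in the lower tail, the bright Podxl probe set at 2.63 in the upper tail, and the 3 Cd24a lines near the middle.

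Cd44 was lower by about 4-fold on each of its probe sets above the filter. It encodes the main receptor for hyaluronan, the matrix sugar, and its transcript is spliced into many forms. Probe set 1423760_at read 12.7 on the wild-type-labelled array and 10.6 on the null-labelled array, 1434376_at read 12.6 and 10.6, and 1452483_a_at read 9.92 and 7.82. The differences were -2.10, -1.99 and -2.10, a range of 0.10, and ranked 525 to 631 from the lowest of 20935. The probe sets thus gave like differences although 1 of them reads nearly 3 units below the others. A 4th probe set, 1443265_at, lay far below the level filter at 3.75 and 3.80. Including it, the 4 Cd44 probe sets averaged -1.53. The upstream window of Cd44, chr2:102901666-102901915 on the minus strand, was searched in the same way as those of Alpl, Cd9 and Icam1.
Cd44: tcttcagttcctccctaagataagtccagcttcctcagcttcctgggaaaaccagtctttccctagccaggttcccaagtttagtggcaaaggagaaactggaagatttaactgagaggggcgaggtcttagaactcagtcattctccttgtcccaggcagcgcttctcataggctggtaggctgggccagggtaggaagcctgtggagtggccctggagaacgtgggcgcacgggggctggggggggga
It holds no match to any of the 6 motifs, and its G and C content was 56.4%.

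Genes that make or bind hyaluronan went both ways. Of 5 expressed genes, 2 passed 2-fold downward and none upward, beside 11.9% and 5.09% of all expressed genes. The median was -0.17, which was -0.90 with the level filter at percentile 75. Vcan, the gene of the hyaluronan-binding proteoglycan versican, differed by -1.99 and the synthase gene Has2 by -1.63, while Hyal2, a hyaluronidase gene, differed by -0.17. Hmmr, another hyaluronan receptor gene with a role at the mitotic spindle, differed by 0.77, with probe sets from 0.073 to 1.001.

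Thy1 was lower by the same step as Cd44. It encodes a small GPI-anchored immunoglobulin-family protein of fibroblasts, neurons and T cells. Its only probe set, 1423135_at, read 11.9 on the wild-type-labelled array and 9.75 on the null-labelled array, a difference of -2.11, or 4.32-fold lower, at rank 512 from the lowest. The Thy1 probe set and the 3 Cd44 probe sets above the filter stood above 6.02 on the null-labelled array too.

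Other surface genes of fibroblasts and stromal cells lay on the same side as Cd44 and Thy1. All 16 were expressed and all 16 were below 0, 11 of them at least 2-fold lower and none 2-fold higher. Of all expressed genes 11.9% were 2-fold lower and 5.09% higher. The list median was -1.43 beside 0.10 over all expressed genes. Alcam, an adhesion molecule gene, differed by -2.37, the receptor gene Pdgfrb by -2.22 and the adhesion gene Vcam1 by -2.09. Ncam1 differed by -2.30 on its brightest probe set but by -0.048 on another. Nt5e, 1 of the 11, differed by -1.23, from 7.23 to just under the level filter on the null-labelled array. Another of its probe sets differed by 0.31. Eng and Mcam were near 0, at -0.093 and -0.049. Averaging every probe set of a gene gave a list median of -1.01. Of the 16, 4 were as low as Cd44 or lower and 3 as low as Thy1.

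Fibroblast genes outside the cell surface moved with Cd44 and Thy1. Of 19 measured, 17 passed 2-fold downward and none upward, beside 11.9% and 5.09% of all expressed genes. The median was -1.91, beside 0.10 over all expressed genes. All 19 were above the level filter on both arrays. Col1a1, a collagen gene, differed by -2.92 (-1.77 on another probe set), S100a4 by -2.66 and the transcription factor genes Twist2 and Prrx1 by -2.51 and -2.28. The log2 of their summed linear values was 17.4 on the wild-type-labelled array and 16.0 on the null-labelled array. The differences of Cd44 and Thy1 lay inside this list, with 9 of the 19 genes as low as Cd44 or lower and 6 as low as Thy1. In bulk RNA, fewer cells of a type and less RNA per cell cannot be told apart, and the part of feeder fibroblasts in the Cd44 and Thy1 values was not tested.

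Most leukocyte genes lay on the same side. Of 11 measured, 9 were at least 2-fold lower and none 2-fold higher, beside 11.9% and 5.09% of all expressed genes. The median was -1.83. Ptprc, the gene of the common leukocyte antigen, differed by -2.77, from 8.10 to 5.33 on the null-labelled array, which is under the level filter. The macrophage genes Tyrobp and Adgre1 differed by -2.37 and -2.31, and Csf1r by -2.15 (-0.88 on another probe set). Cd3e, a gene of the T cell receptor complex, was the 1 gene above 0, at 0.51. Laptm5 differed by only -0.13, from 10.5 to 10.4, and its 4 probe sets above the filter ran from -0.36 to -0.12. All 11 were above the level filter on the wild-type-labelled array and 9 on the null-labelled array, and the log2 of their summed linear values was 13.8 and 12.1. Cd44, Thy1 and Icam1 are made by leukocytes too, and the part of such cells in their values was not tested.

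Other surface genes of pluripotent cells lay on the same side as Podxl, Pecam1, Alpl and Cd9. Of 11 expressed, 5 were at least 2-fold higher and none was 2-fold lower, beside 5.09% and 11.9% of all expressed genes. Of the same 11, 10 were above 0, with a median of 0.94. Fut9, which makes the sugar epitope of the stage-specific embryonic antigen of mouse stem cells, differed by 2.23 from a value of 4.72 on the wild-type-labelled array, under the level filter, to 6.96. The claudin genes Cldn6 and Cldn7 differed by 2.23 and 2.16, and the adhesion gene Epcam by 1.49 on its brightest probe set and -0.051 on another. Alpl lay in the middle of this list, with 7 of the 11 genes as high or higher, while none was as high as Podxl.

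The pluripotency transcription factors, which check the cell type in the labels, were all expressed on both arrays and had a smaller median difference than these surface genes. All 12 were above 0 and none was 2-fold higher or lower, beside 5.09% and 11.9% of all expressed genes. The median was 0.52, beside 0.10 over all expressed genes. The largest were Prdm14 at 0.94, Sox2 at 0.76, Nanog at 0.74 and Sall4 at 0.62. Klf4 at 0.025 and Klf2 at 0.018 lay under the median of all expressed genes. Tbx3 differed by 0.12 on its brightest probe set and by -0.80 on another. The log2 of the summed linear values of the 12 was 14.8 on the wild-type-labelled array and 15.3 on the null-labelled array. Of the 12, 1 was as high as Alpl and none as high as Podxl. Relative to their median the differences of Alpl and Cd9 were 0.39 and 0.41, those of the Podxl probe sets 2.11 and 0.42, and those of Cd24a -0.81 to -0.64.

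**Figure D3:**
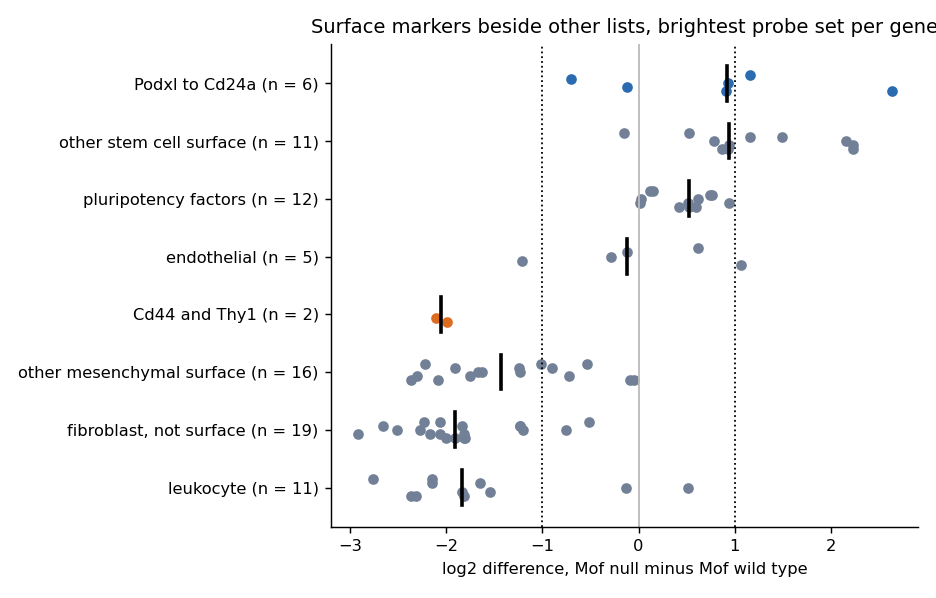
Log2 differences (Mof null minus Mof wild type, horizontal axis) of the brightest probe set of each gene above the level filter, 1 point per gene, for the surface markers (blue and orange) and 6 other lists, with the list median as a black bar and dotted lines at 2-fold. Cd44 and Thy1 lie within the spread of the fibroblast and leukocyte genes, and Alpl, Cd9 and Pecam1 within that of the other stem cell surface genes.

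The table was also rescaled in 3 ways. Centring on the median probe set, correcting the trend with level and repeating the quantile normalization changed no sign among the 13 probe sets and moved none across 2-fold. The bright Podxl probe set ran from 2.53 to 2.67, Pecam1 from 1.07 to 1.23, Icam1 from -0.85 to -0.70 and Thy1 from -2.25 to -2.11. The dimmer Podxl probe set reached 0.9993 at most, just under the threshold. Relative to the pluripotency factors, Icam1 passed 2-fold lower and Pecam1 no longer passed 2-fold higher, which left 1 probe set higher and 5 lower. Over all probe sets above the filter, 0.73% were then 2-fold higher and 21.3% lower.

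**Figure D4:**
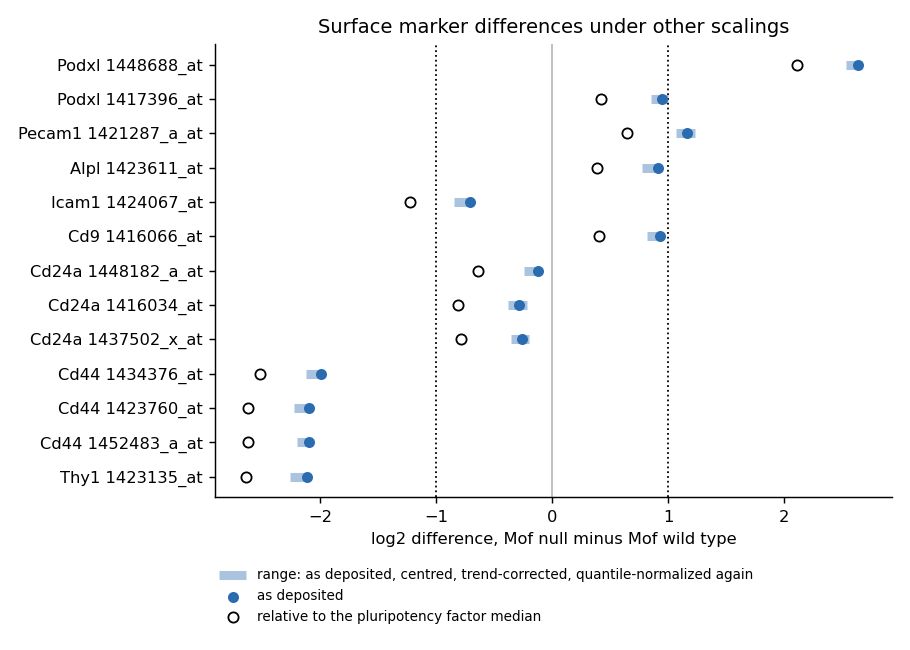
Log2 differences (Mof null minus Mof wild type, horizontal axis) of the 13 surface marker probe sets as deposited (filled points), their range over the deposited and 3 rescaled versions of the table (bars) and relative to the median of the pluripotency factors (open points). No bar crosses 0 or a dotted 2-fold line, and the open points move Pecam1 inside and Icam1 outside the 2-fold lines.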

How the data were processed

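RNA of 2 cultures went to 1 array each. The authors deposited 1 log2 value per probe set and array, for which the submitters' processing notes name RMA, affy and R 2.10.0. RMA corrects background, quantile-normalizes across arrays and summarises probes, so a shift of most transcripts one way cannot be seen, and differences near the floor and the top are compressed. The log2 scale was read from the values, and their number limits the precision of arrays. Of 45101 probe sets, 34945 name 1 gene and are not controls, and 9211 are not listed in the platform annotation. Their Entrez IDs were matched to RefSeq (GRCm38.p6) for 34741, which changed no symbol.

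A gene took its probe set with the highest mean of both arrays. The level filter is percentile 50 of all values. The genes and the 13 other lists were chosen with earlier results of these data known, and 11 listed genes had no probe set that names them alone. Of each list the genes with the largest absolute difference were named, at most 4. Cdh5, Vwf, Alppl2, Akp3, Alpi, Cd3e, Laptm5, Ezr, Slc9a3r1, Nt5e, Eng, Mcam, Klf4, Klf2 and Tbx3 were added after their values were seen. The counting was tested on simulated differences for the 20935 probe sets, with a noise SD set at 0.3. All 200 planted shifts of 2 log2 units were recovered and 13 unchanged probe sets were called. Shifts that large beside the threshold of 1 are recovered almost by construction, and the noise was set, not measured. The run checks the counting only and gives no rate of false calls for these arrays. Alternatives were centring, a lowess correction (span 0.3), quantile normalization, level filters, thresholds of 1.5-fold and 4-fold, and other rules for probe sets. Python 3.11.15, numpy 2.4.6, pandas 2.3.3, statsmodels 0.14.6 and matplotlib 3.10.9 were used.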

Additional observations from a re-analysis of the deposited data

How the results depend on the processing

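With 1 array per genotype no array could be left out, and no result has a test. No paired analysis was possible because each genotype has 1 array and the labels carry no replicate numbers. After centring, trend correction and repeated quantile normalization, 3.24%, 3.42% and 5.08% of all probe sets above the filter were 2-fold higher, respectively. The shares lower were 12.3%, 12.1% and 10.7%, beside 4.49% higher and 11.1% lower as deposited. Each of these rescalings kept 2 surface marker probe sets at least 2-fold higher and 4 lower. The count of higher probe sets was 5 at a 1.5-fold threshold, 1 at 4-fold, 1 without probe sets of suffix _s_at, _x_at or _a_at, which removes the only one of Pecam1, and 1 relative to the pluripotency factors, a scaling added after seeing the data. Under that scaling the differences were 2.11 for Podxl, 0.64 for Pecam1, 0.39 for Alpl, 0.41 for Cd9, -1.23 for Icam1, -0.64 for Cd24a, -2.51 for Cd44 and -2.63 for Thy1, each lower by construction. The mean of all probe sets gave 1.79 for Podxl, as did the median of those above the filter, and -1.53 for Cd44, where a probe set below the filter enters. The share of all probe sets past the threshold was 10.001% with no level filter, 34.4% at 1.5-fold and 3.17% at 4-fold. Relative to the pluripotency factors it was 22.0%. Probe sets past it upward were 16.0% of all at 1.5-fold and 0.22% at 4-fold. They were 4.77% without the suffixed probe sets and 0.73% relative to the pluripotency factors. Of 91 list medians under the other settings, 79 moved by less than the pooled SD between probe sets of 0.33 and 12 by more, and none that was past 2-fold changed sign. Medians of the endothelial, podocalyxin, phosphatase, ICAM and Ly6 lists, each of 3 to 6 expressed genes, changed sign with the level filter or the choice of probe sets, and that of the phosphatases also with trend correction (-0.00098). Near the level filter signal over background limits what can be read, as for the dimmer Podxl probe set.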

Other observations

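Further gene groups bear on the lipid-anchored surface markers. GPI anchor synthesis, which attaches Alpl, Cd24a and Thy1 to the membrane, had 1 of 20 expressed genes past 2-fold upward and none downward. Over all expressed genes the shares were 5.09% and 11.9%, so the upward count was near the overall share. The median was 0.25 beside 0.10 over all expressed genes. Piga, which encodes part of the enzyme of the opening step and lies on the X chromosome, differed by 1.25, Pigo by 0.79 and Pgap1 by 0.66, while Pigc, of the same enzyme as Piga, differed by -0.97.

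The Ly6 family, to which Ly6a belongs, went both ways. Of 12 genes with a probe set 5 were expressed, with 1 past 2-fold upward and 1 downward, beside 5.09% and 11.9% of all expressed genes. Ly6k, a gene of testis and germ cells, read 7.11 on the wild-type-labelled array and 8.90 on the null-labelled array, a difference of 1.79. Ly6e read 11.3 and 10.2 on its brightest probe set, a difference of -1.06, and differed by -0.12 on another. Lynx1 differed by -0.99997 on its brightest probe set, just under 2-fold, and by -1.46 on another. The median over the 5 was 0.27, or -0.13 with the mean of every probe set of a gene and -0.99997 with the level filter at percentile 75.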
